A study of Oryctolagus cuniculus with 12 samples.

Results

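The basilar artery of rabbits on day 3 after experimental subarachnoid hemorrhage was compared with control basilar artery. The 3 arrays whose source name gives day 3 were set against the 3 that give control, which is 6 of the 12 arrays of the study. A probe was used where its spot was marked well above background on all 3 arrays of either group, which kept 24624 of 43623 probes. The day 3 samples are labelled as subarachnoid hemorrhage at day 3 and the control samples as normal, called day 0 in the study's design text. The other 6 arrays, 3 from day 5 and 3 from day 7, enter only the shared estimate of spread and the last comparison below. The labels used here give no strain, sex or age, and do not say how the hemorrhage was produced, whether control animals were operated on, or whether the 3 samples of a group came from separate animals. The p-values therefore rest on the variation among these samples only, and that variation could be technical.

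Each sample was total RNA of basilar artery, amplified with a low-input kit, labelled with Cy3 and hybridised alone to an array (single colour). A value below is the log2 of an array's processed signal minus the log2 of that array's 75th percentile, so that 0 is the 75th percentile of all spots. A change is the mean of the day 3 arrays minus the mean of the control arrays on that scale, with its standard error (SE) from limma. A gene was called where the Benjamini-Hochberg adjusted p, taken over all 24624 probes, was under 0.05. Each gene is represented by its tested probe with the highest mean signal.

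Subarachnoid hemorrhage releases blood into the fluid that bathes the large arteries at the base of the brain. Red cells lyse there over the following days, which exposes the vessel's outer surface to hemoglobin, heme and iron, and the arteries of the patient or animal can narrow in the same period. The wall of the basilar artery is mostly contractile smooth muscle, lined inside by endothelium and wrapped outside by adventitial fibroblasts and a thin sheet of leptomeninges. The acute phase is the coordinated rise of secreted proteins such as serum amyloid A, haptoglobin and ceruloplasmin during inflammation. It is best known from the liver, and several of these genes are also expressed outside it.

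The array reads each transcript with 60-base probes. The probes of some genes with large changes are shown here because the values below rest on them. The probes of 2 serum amyloid A genes overlap by 47 bases, of which 42 are identical, and the 5 differing bases are in capitals. With so few differences, the signals of these 2 probes cannot be fully told apart.
SAA3: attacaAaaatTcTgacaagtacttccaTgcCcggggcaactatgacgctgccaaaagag
LOC100009259: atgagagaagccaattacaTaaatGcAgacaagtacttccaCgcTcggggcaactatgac
Haptoglobin was read by 2 probes that share the 30 bases in capitals.
HP: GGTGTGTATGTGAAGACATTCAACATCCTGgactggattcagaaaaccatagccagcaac
HP: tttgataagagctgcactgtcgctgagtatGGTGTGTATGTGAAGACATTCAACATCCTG
The mitotic kinase CDK1 was read by 3 probes whose longest shared run is 8 bases, so their near-equal changes (3.67, 3.57 and 3.87 in the order shown) come from separate stretches of the transcript.
CDK1: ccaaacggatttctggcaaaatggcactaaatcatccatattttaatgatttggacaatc
CDK1: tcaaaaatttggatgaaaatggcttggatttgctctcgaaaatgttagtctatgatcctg
CDK1: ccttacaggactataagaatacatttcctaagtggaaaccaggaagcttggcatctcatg
Heme oxygenase 1, the matrix inhibitor TIMP1 and the organic anion transporter SLC22A6 are the other genes to which the results return.
HMOX1: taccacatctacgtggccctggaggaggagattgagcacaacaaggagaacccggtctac
TIMP1: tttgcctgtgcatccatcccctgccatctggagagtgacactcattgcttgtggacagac
SLC22A6: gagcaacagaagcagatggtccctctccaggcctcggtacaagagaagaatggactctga

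The 12 arrays lie on 3 slides, per the file headers, and each slide holds 1 array of each group, always at the same position, so array position and group cannot be told apart. The 75th percentile signal ranged over 127 to 191 units, and no spot was saturated. One array, control replicate 2, differed in quality. The scanner software marked 50.1% of its spots as well above background (58.2% to 64.0% elsewhere) and 169 of them as outliers (1 to 16 elsewhere). Its correlation with the other 2 control arrays was 0.945, while those 2 correlated at 0.978 with each other. The labelled tissue matched its markers: ACTA2, MYH11, TAGLN and MYL9, which encode smooth muscle actin, its myosin heavy chain, transgelin and the regulatory light chain, lay 5.72 or more log2 units above the 75th percentile on every day 3 and control array. In bulk tissue, fewer cells of a type and less RNA per cell cannot be told apart.

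On day 3, 1808 of 24624 probes were called (7.34%), 1305 higher (5.3%) and 503 lower (2.04%). Counted as genes, 539 of 6950 were called (7.76%), 382 higher (5.5%) and 157 lower (2.26%), and the median change over all 6950 was 0.00. Every list count below is to be read beside these shares. Of the called genes, 250 were more than 2-fold higher and 94 more than 2-fold lower, and 69 and 16 passed 4-fold. The 3 day 3 arrays did not overlap the 3 control arrays for any of the 539, which held for 1797 of all 6950 genes (25.9%), and 538 of the 539 had the same sign on all 3 slides. The count of called probes was 1160 without control replicate 2 (788 higher and 372 lower), 1043 without control replicate 1, 1098 without day 3 replicate 2 and 797 without day 3 replicate 3. With the slide as a block it was 2405 (1677 higher and 728 lower). Of the called genes, 45 were well above background on no control array and 7 on no day 3 array. These entered the test only through the group where they were high, which favours their calls in the list counts below. Genes above background on all 3 arrays of 1 group and on only part of the other also entered through 1 group alone. This bears on their calls and list counts in the same way. When all arrays of both groups had to be well above background, 111 of the 164 called named genes could be tested. All 111 kept their call. Some of the genes named below were measured above background on only part of a group. CRYBA4, EZH2, FOLR1, IFI35, LOC100344919, MKI67, NDC80, RAD51AP1 and SLC15A2 were well above background on 2 of 3 control arrays, CD86, CLEC4E, MMP19 and UBE2C on 1 of 3, and MFAP5 on 1 of 3 day 3 arrays, so their folds rest partly on background-level signal.

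**Figure D1:**
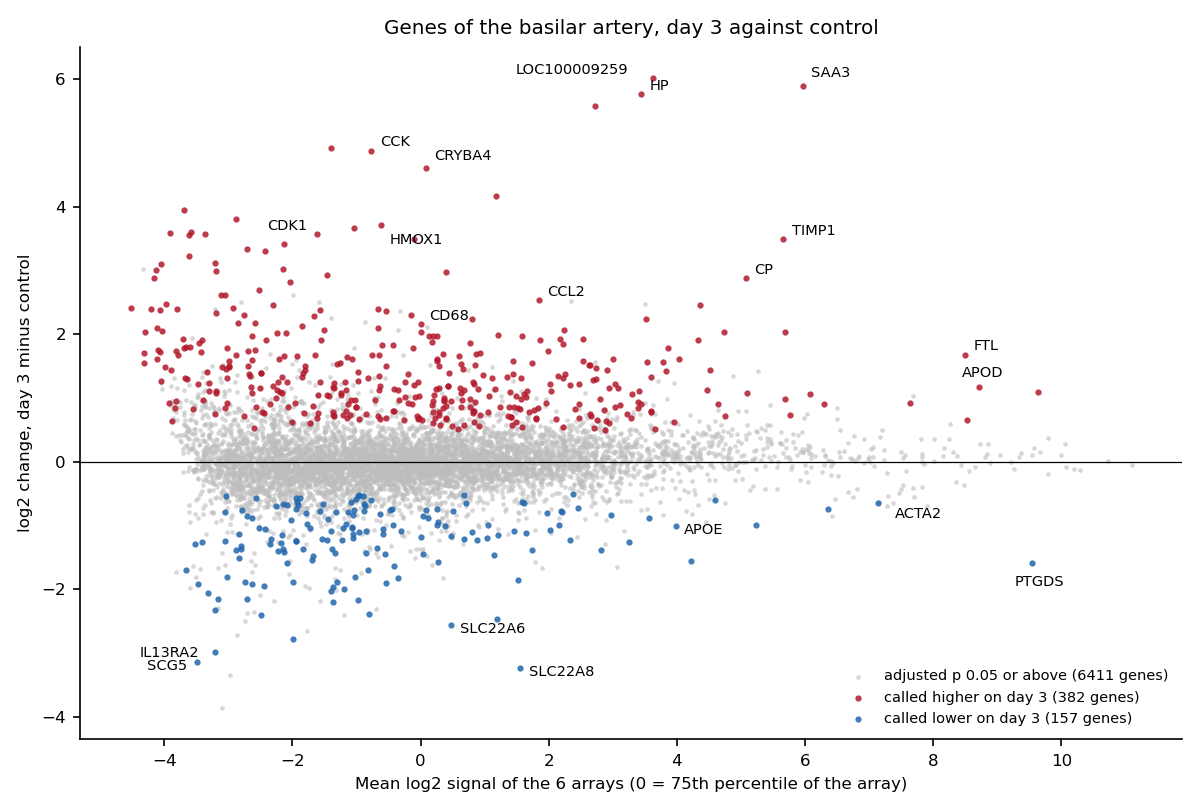
Change in log2 signal (day 3 minus control, vertical axis) against the mean log2 signal of the 6 arrays (horizontal axis) for 6950 genes. Red points are the 382 genes called higher on day 3, blue points the 157 called lower and grey points the rest. The serum amyloid A genes and HP lie at the top, SLC22A8 and SCG5 near the bottom.

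On the brightest probe of each gene, the largest rises were in secreted acute-phase genes. LOC100009259, described on the array as serum amyloid protein A, read 6.05, 6.69 and 7.16 on the day 3 arrays and 0.16, -0.14 and 1.86 on the control arrays. It rose by 6.01 ± 0.48 (SE), which is 64.5-fold (adjusted p = 5.65e-05). SAA3, which the array describes as a pseudogene of the same family, read 8.50, 8.80 and 9.44 on day 3 and 2.69, 2.05 and 4.30 in control, a 59.6-fold rise (5.90 ± 0.52 (SE), adjusted p = 9.91e-05). LOC100009168, another serum amyloid A gene, rose by 5.58, adjusted p = 3.07e-04. Signal of these near-identical genes can be shared between their probes, so the values of the single genes are uncertain. On each of the 3 probes the lowest day 3 array stood above the highest control array, and control replicate 3 was the highest control.

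HP, the plasma protein that captures free hemoglobin, read 6.20, 6.06 and 6.71 on day 3, against -0.14, -0.04 and 1.87 in control, and rose 54.2-fold (5.76 ± 0.55 (SE), adjusted p = 1.31e-04). Its second probe gave a change of 5.63. CP, ceruloplasmin, a copper-carrying ferroxidase that lets iron leave cells, read 6.09, 6.76 and 6.70 on day 3 and 3.62, 3.39 and 3.89 in control and rose 7.37-fold (2.88 ± 0.22 (SE), adjusted p = 5.65e-05). The acute-phase list held 5 measured genes, of which SAA3, HP and CP rose and none fell, with a median change of 2.88. The arrays of the groups were far apart for each of the 3.

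Several enzymes and stores that handle heme and iron rose as well. HMOX1, the enzyme that opens the heme ring, read 0.55, 1.01 and 2.15 on day 3 and -2.22, -2.92 and -2.28 in control, a 13.1-fold rise (3.71 ± 0.37 (SE), adjusted p = 1.59e-04). Only 2 control arrays had its spot well above background. FTL, the ferritin light chain that stores iron, read 9.23, 9.17 and 9.61 on day 3 and 7.80, 7.14 and 8.03 in control, a 3.21-fold rise (1.68 ± 0.22 (SE), adjusted p = 0.00107). GCLM, the modifier subunit of the enzyme that starts glutathione synthesis, rose by 1.83, adjusted p = 3.43e-04, with day 3 arrays at -0.15, 0.41 and 0.67 and control arrays at -1.54, -1.62 and -1.40. TFRC, the receptor that takes up transferrin-bound iron, was the list's only fall (-1.03, adjusted p = 0.04). Of 12 measured heme, iron and NRF2 target genes 5 rose and 1 fell, with a median of 0.88. The fall of TFRC was not called when leaving out any 1 of day 3 replicates 2 and 3 and control replicates 1, 2 and 3 (adjusted p 0.0539 to 0.15), and the list's rises numbered 3 without day 3 replicate 3 or control replicate 2. Hemoglobin and platelet genes, which mark blood carried with the tissue, gave a summed signal of 63.6 to 353.6 on the day 3 arrays and 101.7 to 162.7 on the control arrays. None of the 5 was called by limma and none had an unadjusted p under 0.05.

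**Figure D2:**
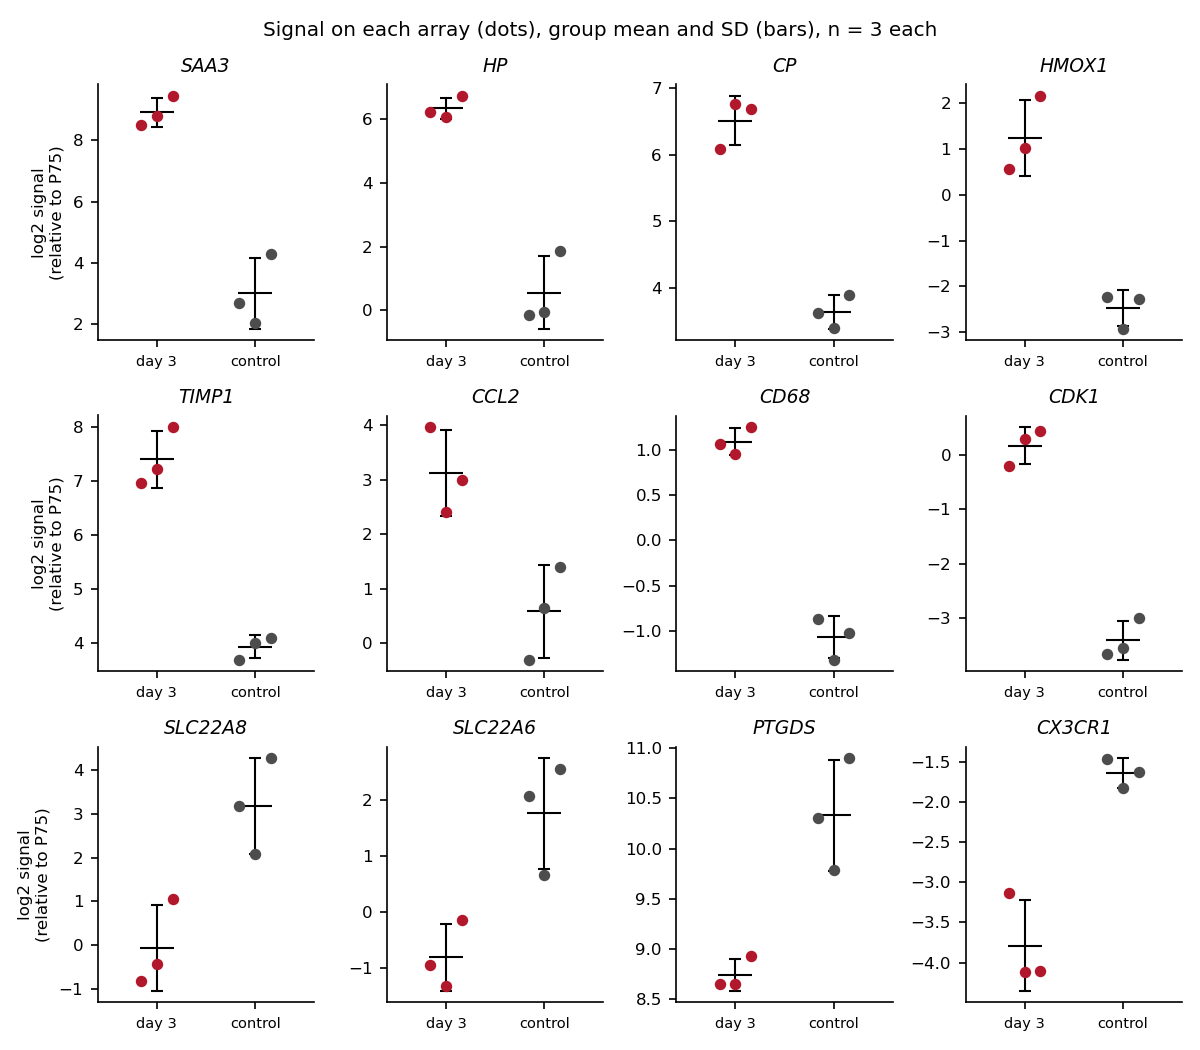
Log2 signal relative to the 75th percentile (vertical axis) on each day 3 array (red dots, left in each panel) and control array (grey dots, right) for 12 genes, with the group mean and SD as bars (n = 3 each). In every panel the day 3 dots lie wholly above the control dots (SAA3, HP, CP, HMOX1, TIMP1, CCL2, CD68, CDK1) or wholly below them (SLC22A8, SLC22A6, PTGDS, CX3CR1).

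Among secreted signals, CCL2, the chemokine that draws monocytes, read 3.96, 2.40 and 2.99 on day 3 and -0.31, 0.65 and 1.40 in control and rose 5.8-fold (2.54 ± 0.45 (SE), adjusted p = 0.00679). The day 3 arrays all stood above the control arrays. CXCL8, the chemokine that draws neutrophils, was read by 7 probes whose changes ran between 1.16 and 4.44, and 6 of the 7 were called higher. The probe with the highest signal gave the smallest of these changes (1.16, adjusted p = 0.041), and its call was lost when leaving out any 1 of day 3 replicates 1, 2 and 3 and control replicates 1 and 2 (adjusted p 0.0754 to 0.149). Another CXCL8 probe gave 3.43 with an adjusted p of 1.62e-05, and was well above background on no control array. CX3CR1, the fractalkine receptor of resident macrophages and monocytes, ran the other way. It read -3.14, -4.12 and -4.11 on day 3, with 1 of 3 arrays well above background, and -1.46, -1.83 and -1.62 in control, and fell by 2.15 (adjusted p = 0.00403). Of the 9 measured chemokine and chemokine receptor genes 2 rose and 1 fell, and the rises numbered 1 without day 3 replicate 1, 2 or 3 or control replicate 1.

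IL10, an anti-inflammatory cytokine, read -2.90, -2.33 and -1.12 on day 3 and was not well above background on any control array. It was at least 2.72-fold higher on day 3 (adjusted p = 0.00129), where the bound sets the day 3 mean against the lowest signal counted as well above background on each control array, or the probe's own signal if that was higher. IL6, a cytokine that drives the acute-phase genes of the liver, was at least 1.61-fold higher by the same rule (adjusted p = 0.0147), with day 3 arrays at -3.22, -3.62 and -1.76, and its call was lost without control replicate 1 (adjusted p = 0.0521). Its signal-transducing receptor chain IL6ST rose by 0.71, adjusted p = 0.0197, a call lost when leaving out any 1 of day 3 replicates 1 and 3 and control replicate 1 (adjusted p 0.0516 to 0.0864). TNFAIP6, a hyaluronan-binding protein made in response to TNF, read 0.12, 0.91 and 1.38 on day 3 and -3.85, -2.40 and -2.34 in control and rose 12.7-fold (3.67 ± 0.47 (SE), adjusted p = 8.71e-04). It was the only called gene among 12 of the NF-kappaB and TNF response, a share near the 7.76% called over all genes. IL13RA2, the decoy receptor for IL-13, was well above background on no day 3 array and read -1.6, -2.45 and -1.11 in control, and was at least 4.36-fold lower on day 3 (adjusted p = 0.00506). In the IL-6 list 3 of 9 genes rose. That count was 1 without day 3 replicate 1 or 3 and 0 without control replicate 1.

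Innate sensors rose in part. CD14, which hands bacterial lipopolysaccharide to its receptor, read 3.95, 3.38 and 3.56 on day 3 and 2.57, 1.86 and 2.11 in control, a 2.72-fold rise (adjusted p = 0.00234). The receptor itself, TLR4, which also responds to heme and other products of tissue damage, read 1.14, 0.68 and 0.79 on day 3 and -0.09, -0.72 and -0.03 in control and rose 2.22-fold (adjusted p = 0.00748). CLEC4E, a lectin receptor for dead cells and fungi, rose by 2.62, adjusted p = 0.0131, a call lost without day 3 replicate 3 (adjusted p = 0.057) or control replicate 1 (adjusted p = 0.0525). All 5 CLEC4E probes were called higher, with changes of 2.62 to 3.73. The dimmer ones were well above background on no control array. In the list of pattern recognition and inflammasome genes 5 of 13 rose and none fell (median 0.77), and the rises numbered 3 without day 3 replicate 3 or control replicate 1 or 2.

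Most of the interferon list rose. Of 15 measured type I interferon response genes, 12 rose and none fell, with a median of 1.49, and the slide medians were 1.18, 1.99 and 1.23. IRF7, the transcription factor that amplifies interferon production, read 5.44, 5.69 and 4.74 on day 3 and 3.40, 3.31 and 3.40 in control and rose 3.78-fold (1.92 ± 0.32 (SE), adjusted p = 0.00465). RIGI and IFIH1 encode the cytosolic sensors of viral RNA. RIGI read 0.84, 1.71 and 0.98 on day 3 and -0.83, -0.61 and -0.93 in control, a change of 1.97, adjusted p = 2.57e-04. IFIH1 read 2.78, 3.26 and 2.78 on day 3 and 1.6, 1.35 and 1.73 in control, a change of 1.38, adjusted p = 0.00439. IFI35, an interferon-induced protein, rose by 1.67, adjusted p = 7.55e-04. The groups did not overlap for any of these 4 genes. Leaving out arrays in turn left 9 to 12 of the 15 called higher, and 9 without control replicate 2.

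Some complement genes rose and none was called lower. C1R, the first protease of the classical pathway, read 5.72, 5.66 and 5.89 on day 3 and 4.0, 3.48 and 3.68 in control and rose 4.1-fold (2.03 ± 0.16 (SE), adjusted p = 5.65e-05); the array's own description of this probe names the lectin pathway protease MASP1. CFB, factor B of the alternative pathway, read 3.36, 3.31 and 3.50 on day 3 and 2.24, 1.51 and 1.87 in control, a change of 1.52, adjusted p = 0.00384. C7, a part of the membrane attack complex, read 4.45, 4.19 and 4.14 on day 3 and 3.08, 2.64 and 3.07 in control, a change of 1.33, adjusted p = 0.00469; the array describes its probe as similar to the C8 alpha chain. C6 of the same complex was at least 1.7-fold higher (adjusted p = 0.00497), having been well above background on no control array. Its second probe, equally dim in control, was not called (1.115 ± 0.68 (SE), adjusted p = 0.377). The mean of the C6 probes was not called either (adjusted p = 0.0582). In all 7 of 18 complement genes rose, with a median of 0.95, or 0.86 with such genes at their bound, and 6 rose without control replicate 2.

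Genes that mark macrophages rose in part. CD68, a lysosomal membrane protein of macrophages, read 1.07, 0.96 and 1.25 on day 3 and -0.87, -1.32 and -1.03 in control and rose 4.49-fold (2.17 ± 0.19 (SE), adjusted p = 9.32e-05). MSR1, a scavenger receptor for modified lipoproteins, read -1.19, -1.17 and -0.84 on day 3 and -2.29, -4.39 and -3.93 in control, where 1 array was well above background, and rose 5.53-fold (2.47 ± 0.45 (SE), adjusted p = 0.00822). MRC1, the mannose receptor, rose by 1.37, adjusted p = 0.0183, a call lost when leaving out any 1 of day 3 replicate 2 and control replicates 1 and 2 (adjusted p 0.0521 to 0.0703). Of 10 macrophage markers measured 5 rose and none fell (median 1.22), and 3 rose without control replicate 2. Their summed signal, on a scale where the 75th percentile of the array is 1, was 30.4 to 41.5 on the day 3 arrays and 11.4 to 17.2 on the control arrays, so the groups did not overlap. The part of the macrophage signal in the other immune lists was not tested. NCF4, a cytosolic subunit of the phagocyte oxidase, rose by 1.03, adjusted p = 0.0139, a call lost without day 3 replicate 3 (adjusted p = 0.064). CD86, a co-stimulatory molecule of antigen-presenting cells, rose by 1.41, adjusted p = 0.00583 and was 1 of 2 rises among 11 genes of antigen presentation.

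Markers of other leukocytes were examined next. The 7 neutrophil markers measured, among them S100A8 and CXCR2, gave a summed signal of 5.66 to 6.86 on the day 3 arrays and 5.24 to 6.22 on the control arrays. None was called by limma and none had an unadjusted p under 0.05. S100A8, a calcium-binding protein of neutrophils and monocytes, read 0.22, 0.61 and -1.03 on day 3 and 0.66, -2.38 and -2.43 in control (adjusted p = 0.521), and the groups overlapped. Among 7 T and NK cell markers none was called, while 2 were higher at an unadjusted p under 0.05, with a summed signal of 1.78 to 4.11 on the day 3 arrays and 1.6 to 1.88 on the control arrays. With the slide as a block 1 of the 7 was called, CD3G, a chain of the T cell receptor complex (1.15, adjusted p = 0.0454, against 0.205 without the block). CD3E, CD2 and CD4 were on the array and did not pass the background filter. LOC100346285, described on the array as granzyme A-like, a protease of cytotoxic lymphocytes, read 3.27, 3.72 and 2.79 on day 3 and -1.52, -0.84 and -0.36 in control and rose 18-fold (4.17 ± 0.31 (SE), adjusted p = 5.18e-05). Its dimmer second probe, well above background on 1 of 3 control arrays, gave a larger change of 6.51 ± 0.59 (SE), adjusted p = 1.07e-04. CD79B, which signals for the antigen receptor of B cells, showed on no control array above background and exceeded them at least 1.75-fold on day 3 (adjusted p = 0.00595), while MS4A1, the other B cell marker measured, was not called. Neither of the 2 mast cell markers measured, KIT and HDC, was called or had an unadjusted p under 0.05.

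**Figure D3:**
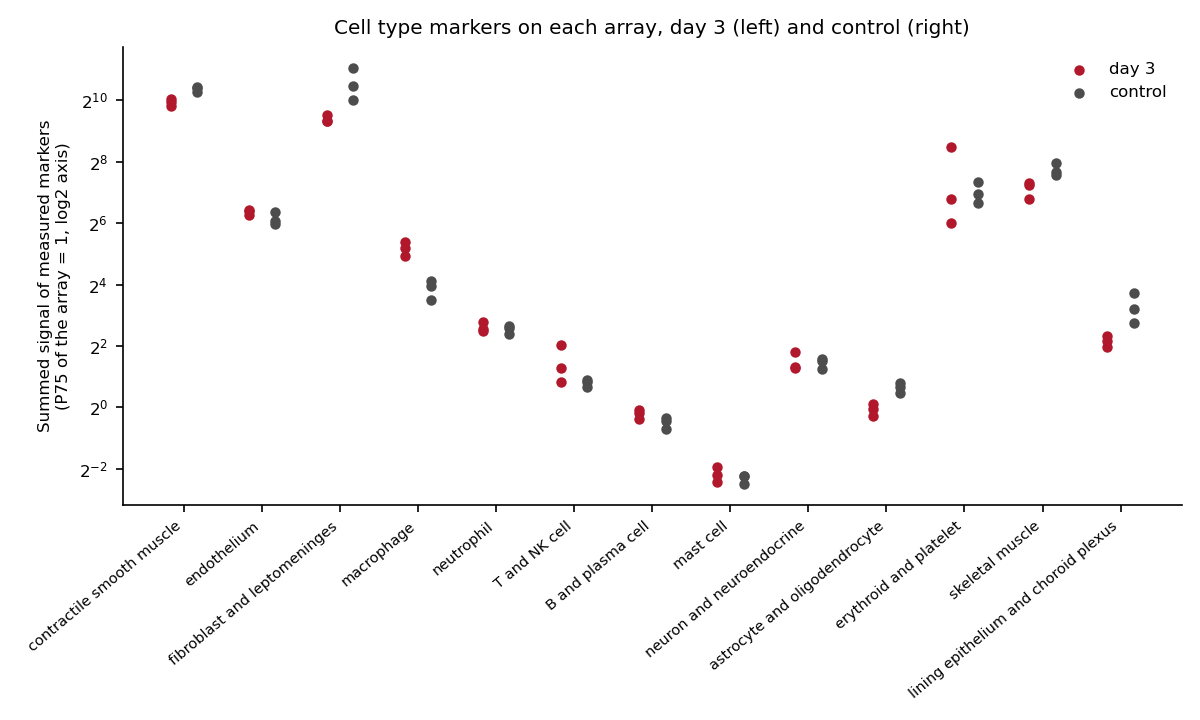
Summed signal of the measured markers of 13 cell types (vertical log2 axis, 75th percentile of the array = 1) on each day 3 array (red, left of each pair) and control array (grey, right). The macrophage sum lies higher on all day 3 arrays, and the smooth muscle, fibroblast and leptomeninges, astrocyte, skeletal muscle and choroid plexus sums lie lower on all of them. A sum mostly follows its brightest markers. In the fibroblast and leptomeninges list 6 of 10 members had a positive change, and in the skeletal muscle list 2 of 5. The astrocyte sum rests on 2 genes.

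Many genes of cell division rose. CDK1, the cyclin-dependent kinase of the G2 to M transition, read -0.21, 0.29 and 0.43 on day 3 and -3.66, -3.55 and -2.99 in control, where 2 of 3 arrays were well above background, and rose 11.9-fold (3.57 ± 0.30 (SE), adjusted p = 8.50e-05). MKI67, the antigen used to count dividing cells, read -0.32, 0.43 and -0.08 on day 3 and -2.59, -2.83 and -3.34 in control and rose 7.63-fold (2.93 ± 0.27 (SE), adjusted p = 1.21e-04). UBE2C and CDC20, which act with the anaphase-promoting complex to end mitosis, rose by 3.42, adjusted p = 5.65e-05 and by 2.29, adjusted p = 4.45e-04. Of 25 cyclins, kinases and brakes 11 rose and 3 fell. The falls were CCNF, CCND2 and CCND1. CCNF, cyclin F, a ubiquitin ligase subunit that restrains ribonucleotide reductase M2, read -0.91, -0.31 and -0.33 on day 3 and 0.89, 0.60 and 1.68 in control, a change of -1.57, adjusted p = 0.00583. CCND2, a cyclin of the G1 phase whose probe the array describes as cyclin D1, read 6.04, 5.94 and 6.0 on day 3 and 6.72, 6.62 and 6.85 in control, a change of -0.74, adjusted p = 0.00997. The fall of CCND1 (-0.81) was lost when leaving out any 1 of day 3 replicates 1 and 2 and control replicates 2 and 3 (adjusted p 0.0641 to 0.121). CDKN1A, the p21 inhibitor of these kinases, read 0.45, -0.41 and 0.20 on day 3 and -1.84, -0.91 and -2.05 in control and rose as well (1.68, adjusted p = 0.0103).

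Part of the machinery that attaches chromosomes to the spindle was well above background on no control array. BUB1B, BUB1 and AURKB, kinases of the spindle checkpoint and the chromosomal passenger complex, were well above background on all 3 day 3 arrays and on no control array. They were at least 6.02-fold, 3.43-fold and 3.76-fold higher (adjusted p = 4.14e-05, 1.02e-04 and 3.00e-04). NDC80, the kinetochore protein that grips microtubules, read -1.25, -0.36 and -0.31 on day 3 and -3.76, -3.61 and -3.61 in control and rose 8.13-fold (3.02 ± 0.22 (SE), adjusted p = 5.18e-05). Of 38 kinetochore and spindle genes on the array 26 passed the background filter, at least 8 of them only through their day 3 signal. Of the 26 genes 12 rose and none fell, a count that is therefore not independent of the filter. The median was 1.05, or 0.80 with the 8 genes that no control array showed above background set at their bound. Leaving out arrays in turn gave 9 to 13 rises, and 9 without control replicate 2. NCAPG, a subunit of the condensin complex that compacts chromosomes, was higher on day 3 by at least 3.59-fold (adjusted p = 5.65e-05). EZH2, the histone methyltransferase of Polycomb complex 2, read -1.73, -1.18 and -1.31 on day 3 and -3.05, -2.77 and -3.24 in control, a change of 1.62, adjusted p = 3.20e-04. These 2 were among 7 rises in 19 genes of chromosome structure, which numbered 4 without day 3 replicate 2 or 3.

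Among genes of DNA synthesis, POLE, the catalytic subunit of the leading-strand polymerase, was at least 3.64-fold higher and MCM4, part of the replicative helicase, at least 2.9-fold higher (adjusted p = 9.32e-05 and 2.57e-04). Of 19 replication genes 4 rose, with a median of 0.44, and the rises numbered 2 without day 3 replicate 2 or 3 or control replicate 2. RRM2, the subunit of ribonucleotide reductase made for S phase, was at least 3.29-fold higher (adjusted p = 1.07e-04). TK1, the thymidine kinase of dividing cells, read -1.36, -1.0 and -0.81 on day 3 and -2.69, -2.30 and -2.68 in control, a change of 1.5, adjusted p = 8.97e-04. RAD51AP1, which assists homologous recombination, rose by 2.03, adjusted p = 6.99e-04. Among 21 genes of ribosome biogenesis and the MYC program limma called none, while 5 were higher at an unadjusted p under 0.05 (median 0.12).

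Called genes of the extracellular matrix and its proteases moved in both directions. TIMP1, the inhibitor of matrix metalloproteinases, read 6.98, 7.24 and 8.01 on day 3 and 3.68, 3.99 and 4.08 in control and rose 11.2-fold (3.49 ± 0.28 (SE), adjusted p = 5.65e-05). PLAU, urokinase, which activates plasminogen, read 3.41, 3.11 and 3.70 on day 3 and 1.70, 1.96 and 2.01 in control and rose 2.86-fold (1.51 ± 0.21 (SE), adjusted p = 0.00129). MMP19, a metalloproteinase, rose by 1.76, adjusted p = 0.00188. MMP9, a gelatinase, read 0.22, 0.91 and 0.42 on day 3 and 0.09, 0.98 and 1.19 in control and was not called (-0.24, adjusted p = 0.734). In the metalloproteinase list 2 of 17 genes rose, against 5.5% called higher over all genes. In the list of coagulation and fibrinolysis PLAU was the only call among 12, a share near the 7.76% called over all genes.

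COL1A1, a chain of the main fibrillar collagen, read 4.42, 4.20 and 4.34 on day 3 and 2.97, 3.17 and 2.14 in control and rose 2.95-fold (1.56 ± 0.23 (SE), adjusted p = 0.00203). COL3A1, the collagen of elastic vessel walls, rose by 0.93, adjusted p = 0.0292, a call lost when leaving out any 1 of day 3 replicates 1, 2 and 3 and control replicates 1 and 3 (adjusted p 0.0576 to 0.101). TNN, tenascin N, read -0.32, -0.86 and -1.26 on day 3 and -2.20, -2.38 and -2.88 in control, a change of 1.67, adjusted p = 0.00415. TGFBI, a matrix protein induced by TGF-beta, rose by 1.02, adjusted p = 0.011. Of 22 fibrillar collagens and matricellular genes 7 rose and 2 fell, and the rises numbered 4 without day 3 replicate 3 and 3 without day 3 replicate 2. The falls were CCN2, connective tissue growth factor (-1.38, adjusted p = 0.0266), and FBN2, a fibrillin (-1.24, adjusted p = 0.0217). CCN2 was not called without any 1 of day 3 replicates 2 and 3 and control replicates 1 and 3 (adjusted p 0.0595 to 0.11), and FBN2 not without any 1 of day 3 replicates 2 and 3 and control replicates 1 and 2 (adjusted p 0.0633 to 0.0886). SPP1, osteopontin, read 3.33, 4.47 and 6.43 on day 3 and 2.16, 1.30 and 3.34 in control, and its change of 2.47 missed the threshold (adjusted p = 0.0631). TNC, tenascin C, differed by 0.02 (adjusted p = 0.977).

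Enzymes that mature collagen rose in 5 of 17 cases. PCOLCE2, an enhancer of procollagen cleavage, read 0.83, 1.6 and 0.99 on day 3 and -0.10, -0.66 and 0.02 in control, a change of 1.39, adjusted p = 0.00917. LOXL1, a cross-linking oxidase of elastin, rose by 0.91, adjusted p = 0.0113, a call lost without day 3 replicate 3 (adjusted p = 0.0531). The list's rises numbered 3 without day 3 replicate 1 or control replicate 3, 2 without day 3 replicate 2 and 1 without day 3 replicate 3. CD44, the hyaluronan receptor, read 1.55, 1.58 and 1.21 on day 3 and 0.31, 0.42 and -0.07 in control, a change of 1.23, adjusted p = 0.00595. ITGA6, a laminin receptor, read 0.61, 0.41 and 0.75 on day 3 and 1.87, 3.34 and 2.10 in control and fell by 1.85 (adjusted p = 0.00506). It was 1 of 3 falls, against 1 rise, among 22 basement membrane and integrin genes. CSPG5, a proteoglycan known from neurons, read -2.66, -2.75 and -4.72 on day 3, with 2 arrays well above background, and 0.06, -0.94 and -0.93 in control, and fell by 2.77 (adjusted p = 0.00628).

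**Figure D4:**
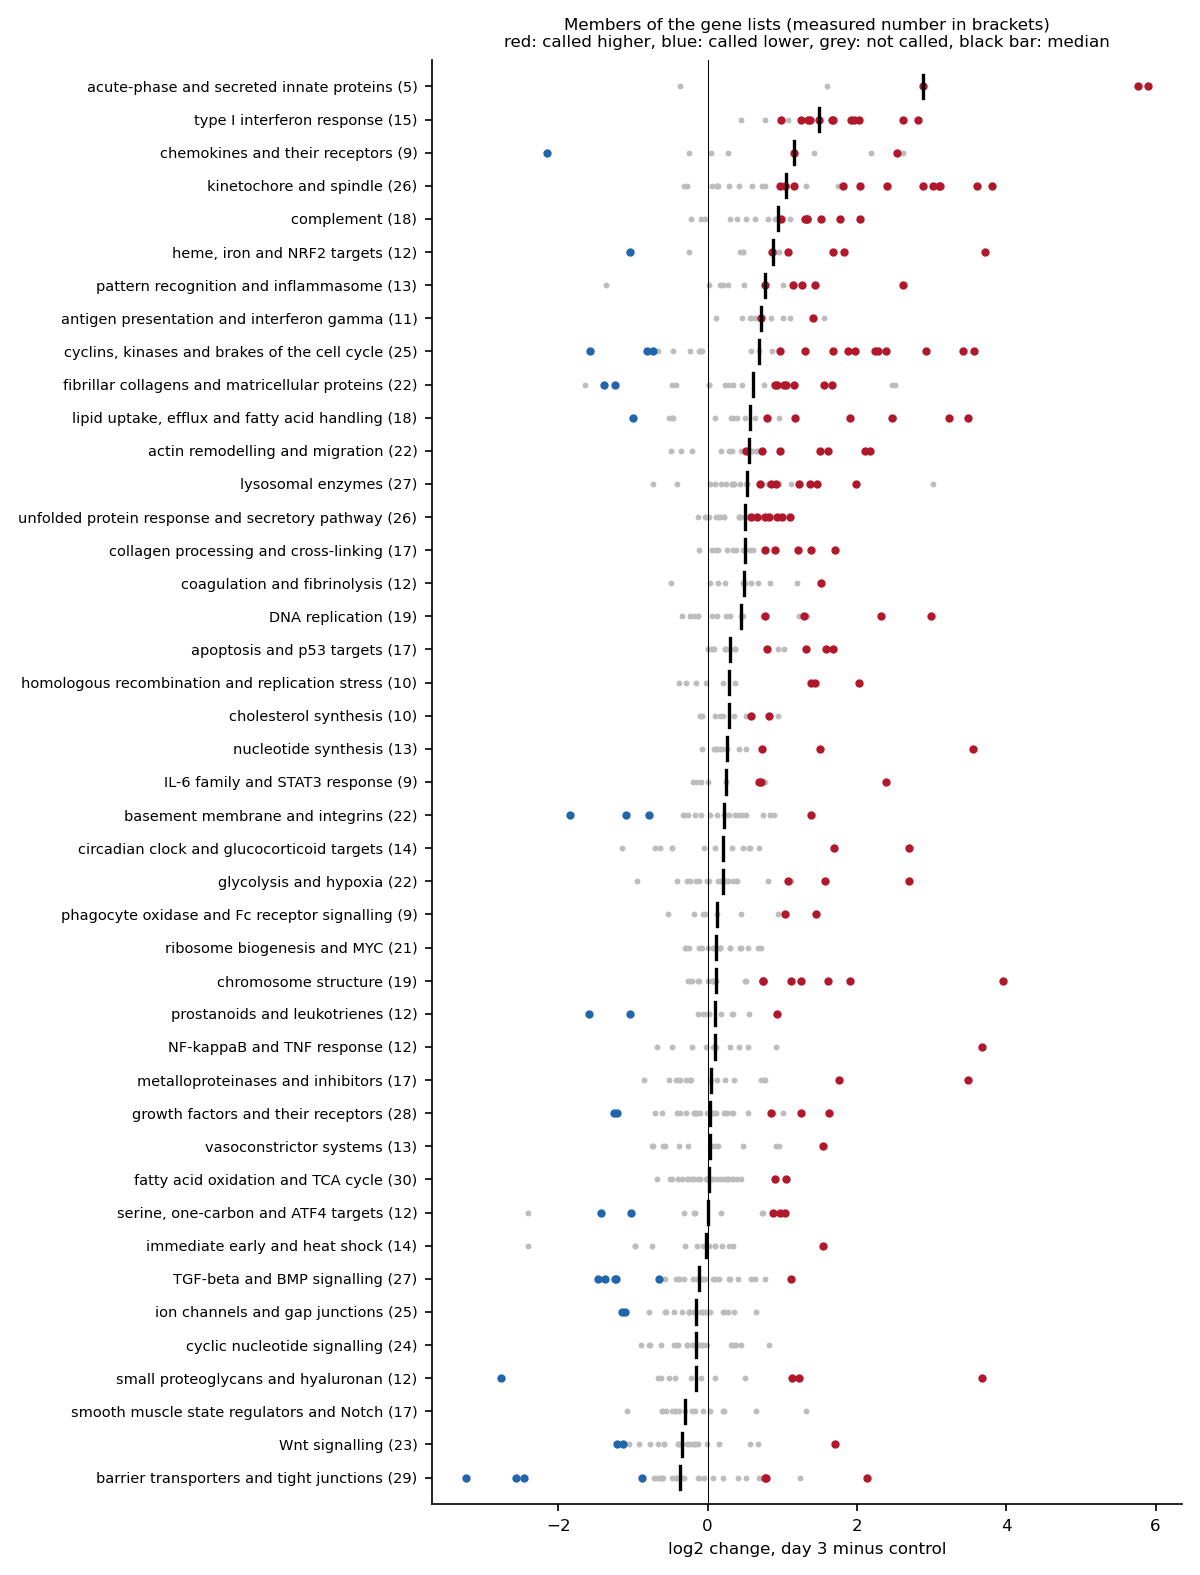
Change in log2 signal (day 3 minus control, horizontal axis) of every measured member of 43 gene lists (rows, number measured in brackets), with called rises in red, called falls in blue, other members in grey and the list median as a black bar. Lists of acute-phase, interferon, chemokine, kinetochore and complement genes have the highest medians, and barrier transporters and Wnt signalling the lowest.

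The contractile genes of smooth muscle mostly read lower on day 3 and mostly missed the threshold. ACTA2 read 7.16, 6.55 and 7.08 on day 3 and 7.49, 7.88 and 7.48 in control (-0.69 ± 0.25 (SE), adjusted p = 0.133). MYH11 read 6.20, 6.09 and 5.72 on day 3 and 7.33, 6.90 and 6.30 in control (-0.84 ± 0.29 (SE), adjusted p = 0.112), and a fit blocked on the slide called it (adjusted p = 0.00732). TAGLN read 6.23, 6.04 and 6.27 on day 3 and 7.01, 6.78 and 6.48 in control (-0.58 ± 0.18 (SE), adjusted p = 0.0781). In each of these 3 genes the highest day 3 array lay below the lowest control array, as it did for MYL9, the only contractile gene called (-0.64, adjusted p = 0.0404), a call lost when leaving out any 1 of day 3 replicates 2 and 3 and control replicates 1 and 2 (adjusted p 0.0842 to 0.156). Of 18 genes 1 fell, none rose and 16 had a negative change, with a median of -0.44 and slide medians of -0.41, -0.54 and -0.47. At an unadjusted p under 0.05, 8 of the 18 were lower. Falls numbered 4 without control replicate 3, 2 without day 3 replicate 1 and 0 without day 3 replicate 2 or 3 or control replicate 1, and 3 with the slide as a block. The markers' summed signal was 903.9 to 1050 on the day 3 arrays and 1245 to 1375 on the control arrays.

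Among regulators of smooth muscle tone, 2 of 25 ion channel and gap junction genes and 1 of 13 genes of vasoconstrictor systems were called, a share near the 7.76% called over all genes. RYR3, a calcium release channel of the sarcoplasmic reticulum, read 1.03, 0.89 and 1.36 on day 3 and 2.37, 2.14 and 2.11 in control and fell by 1.11 (adjusted p = 0.00227). RYR2, its relative, read 0.72, 0.62 and 0.54 on day 3 and 1.67, 1.96 and 1.70 in control and fell by 1.15 (adjusted p = 0.0129), a call lost without day 3 replicate 3 (adjusted p = 0.0539). These were the calls among the ion channel and gap junction genes. Among 24 genes of cyclic nucleotide signalling limma called none, and 3 were lower at an unadjusted p under 0.05.

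HTR2A, a serotonin receptor that contracts cerebral arteries, read -0.59, -0.28 and -0.73 on day 3 and -1.69, -1.37 and -3.16 in control and was the only call among 13 genes of vasoconstrictor systems (1.54, adjusted p = 0.0404). The call of this probe was lost when leaving out any 1 of day 3 replicates 1, 2 and 3 and control replicates 1 and 3 (adjusted p 0.0559 to 0.124). Of the 4 HTR2A probes 3 were called higher. The dimmer ones gave 1.735, 2.135 and 1.37 in limma (adjusted p = 0.0031, 0.0032 and 0.096). They were well above background on 2, 2 and 1 of the 3 control arrays. EDN1, endothelin 1, read 0.14, -0.18 and 0.14 on day 3 and 0.32, 0.30 and 0.25 in control (-0.26 ± 0.25 (SE), adjusted p = 0.604). Its smooth muscle receptor EDNRA read 1.34, 1.48 and 1.32 on day 3 and 1.34, 1.32 and 1.24 in control (0.08 ± 0.15 (SE), adjusted p = 0.809), and the groups overlapped. EDNRB, the second endothelin receptor, gave -0.60, adjusted p = 0.322 on its brightest probe and changes of both signs among its probes. PTGS2, cyclooxygenase 2, read 3.37, 3.79 and 4.71 on day 3 and 3.04, 2.47 and 3.62 in control and was not called (0.92, adjusted p = 0.246). In the list of smooth muscle state regulators and Notch genes limma called none of 17, with 2 higher and 6 lower at an unadjusted p under 0.05 (median -0.31).

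No gene of the endothelial marker list was called, while ESM1, outside that list, rose by 1.92 (adjusted p = 6.28e-04). NOS3, the nitric oxide synthase of endothelium, read 1.58, 1.16 and 1.63 on day 3 and 2.81, 1.72 and 2.20 in control (-0.79 ± 0.32 (SE), adjusted p = 0.167). CLDN5, the claudin of brain endothelial tight junctions, read 2.70, 2.61 and 1.89 on day 3 and 3.30, 2.94 and 2.89 in control (-0.64 ± 0.23 (SE), adjusted p = 0.118). VCAM1, an adhesion molecule for leukocytes, read 4.31, 3.99 and 4.37 on day 3 and 3.83, 4.17 and 4.42 in control (0.08 ± 0.22 (SE), adjusted p = 0.881), and the groups overlapped. Of the 8 endothelial markers measured limma called none, 3 were lower at an unadjusted p under 0.05, and the median was -0.43. Their summed signal was 76.3 to 85.7 on the day 3 arrays and 63.3 to 82.1 on the control arrays. KDR and ICAM1 were on the array and did not pass the background filter.

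The largest called fall was in a membrane transporter. SLC22A8, an organic anion transporter known from kidney and from the barriers of the brain, read -0.81, -0.42 and 1.05 on day 3 and 3.18, 2.08 and 4.27 in control. It fell by 3.24 ± 0.65 (SE), to 0.106 times the control level (adjusted p = 0.0129). SLC22A6, a related anion transporter, read -0.94, -1.32 and -0.14 on day 3 and 2.06, 0.66 and 2.56 in control and fell by 2.56 ± 0.42 (SE) (adjusted p = 0.00426). For both genes the groups did not overlap, and control replicate 2 was the lowest control array. SLC15A2, a peptide transporter, rose by 2.13, adjusted p = 0.0168, a call lost when leaving out any 1 of day 3 replicate 1 and control replicates 1 and 2 (adjusted p 0.0557 to 0.0651). Of 29 barrier transporter and tight junction genes 3 rose and 4 fell (median -0.37), and the rises numbered 1 without day 3 replicate 1 or 3 or control replicate 1 and 0 without control replicate 2 and the falls 2 without day 3 replicate 3.

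PTGDS, the prostaglandin D2 synthase abundant in leptomeninges, read 8.65, 8.65 and 8.92 on day 3 and 10.30, 9.79 and 10.90 in control. It fell by 1.59 ± 0.24 (SE), to 0.332 times the control level (adjusted p = 0.00234). IGFBP2, a binding protein of insulin-like growth factors also made there, read 2.70, 2.43 and 2.74 on day 3 and 4.46, 3.47 and 3.71 in control and fell by 1.25 (adjusted p = 0.0117). Of 10 fibroblast and leptomeningeal markers 2 rose (COL1A1 and LUM) and 3 fell (PTGDS, IGFBP2 and MFAP5). LUM, lumican, rose by 1.13, adjusted p = 0.015, a call lost without day 3 replicate 3 (adjusted p = 0.0583) or control replicate 1 (adjusted p = 0.0541). MFAP5, a microfibril protein of adventitial fibroblasts, fell by 2.40 (adjusted p = 0.016), a call lost when leaving out any 1 of day 3 replicates 2 and 3 and control replicate 2 (adjusted p 0.0505 to 0.0725). The summed signal of the 10, mostly that of PTGDS, was 634.6 to 734.8 on the day 3 arrays and 1037 to 2130 on the control arrays. The part of these markers in the falls of the transporters was not tested.

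Markers of tissue next to the artery were also followed. The 5 skeletal muscle markers measured gave a summed signal of 109.8 to 158.9 on the day 3 arrays and 189 to 250.1 on the control arrays. TNNC2, the troponin C of fast muscle, was the only call and fell by 0.98 (adjusted p = 0.0083). Of the 5, 2 had a positive change, and at an unadjusted p under 0.05 1 was higher and 2 were lower. Their mean log2 signal was -0.14, 0.39 and 0.67 on day 3 and 0.45, 0.38 and 0.31 in control, so by that measure the groups overlapped. The choroid plexus and lining epithelium markers gave 3.89 to 5.02 on the day 3 arrays and 6.78 to 13.1 on the control arrays, with 1 of 4 called, FOLR1, a folate receptor, which rose (1.24, adjusted p = 0.0217) and lost the call without day 3 replicate 1 (adjusted p = 0.0517) or day 3 replicate 3 (adjusted p = 0.0883). SCG5, a chaperone of neuroendocrine prohormone convertase, was well above background on no day 3 array, read -2.52, -1.56 and -1.68 in control and was at least 3.8-fold lower (adjusted p = 4.54e-04). It was the only call among 4 neuronal markers. ALDH1L1, a folate enzyme that marks astrocytes, read -1.82, -1.55 and -2.79 on day 3 and -0.83, -0.60 and -0.44 in control and fell by 1.43 (adjusted p = 0.0109). GFAP and AQP4, which define astrocytes, did not pass the background filter.

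Called genes of the TGF-beta, BMP and Wnt pathways mostly fell. BMP4, a bone morphogenetic protein, read 0.57, 0.07 and 0.15 on day 3 and 1.36, 1.28 and 1.82 in control and fell by 1.23 (adjusted p = 0.0027). Of 27 TGF-beta and BMP genes 1 rose and 5 fell, and the falls numbered 3 without day 3 replicate 1 and 1 without day 3 replicate 2 or 3 or control replicate 1 or 2. RSPO1, an enhancer of Wnt signalling whose probe the array describes as similar to a thrombospondin type 1 domain protein, read 0.12, 0.00 and 0.07 on day 3 and 0.98, 1.23 and 1.62 in control and fell by 1.21 (adjusted p = 0.00497). NKD1, a feedback inhibitor of the same pathway, fell by 1.13 (adjusted p = 0.00999). SFRP4, a secreted Wnt antagonist, rose by 1.71, adjusted p = 0.0306, a call lost when leaving out any 1 of day 3 replicates 1 and 2 and control replicates 1 and 3 (adjusted p 0.0654 to 0.101). Of 23 Wnt genes 1 rose and 2 fell (median -0.35).

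Among growth factors, HGF, the ligand of the MET receptor, read 0.60, 0.23 and 0.32 on day 3 and -1.14, -0.44 and -1.01 in control and rose 2.38-fold (1.25 ± 0.22 (SE), adjusted p = 0.00628). IGFBP4, another binding protein of insulin-like growth factors, read 1.0, 0.75 and 1.46 on day 3 and -0.36, -0.78 and -0.52 in control and rose 3.07-fold (1.62 ± 0.22 (SE), adjusted p = 0.00136). Of 28 growth factors and receptors 3 rose and 2 fell (median 0.04). ADORA3, an adenosine receptor, read -4.38, -3.69 and -5.03 on day 3, where 1 array was well above background, and -1.46, -2.52 and -2.15 in control, and fell by 2.32 (adjusted p = 0.00445).

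Called lipid handling genes rose with 1 exception. ABCA6, a transporter of the ABCA family, read 1.23, 1.22 and 2.48 on day 3 and -1.59, -2.15 and -1.82 in control and rose 11.2-fold (3.49 ± 0.49 (SE), adjusted p = 0.00155). Its other 2 probes gave 5.39 and 4.37. SGPL1, which degrades sphingosine 1-phosphate, was at least 2.96-fold higher (adjusted p = 4.73e-04). APOD, a lipocalin that binds small lipids, read 9.45, 9.10 and 9.35 on day 3 and 8.06, 8.09 and 8.23 in control and rose 2.26-fold (1.17 ± 0.17 (SE), adjusted p = 0.00219). APOE, the apolipoprotein that exports cholesterol, read 3.52, 3.48 and 3.45 on day 3 and 4.53, 4.62 and 4.29 in control and fell by 1.0 ± 0.14 (SE) (adjusted p = 0.00146). Of 18 lipid genes 6 rose and APOE fell.

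Some lysosomal enzymes rose and none was called lower. CTSD, cathepsin D, read 2.12, 2.07 and 2.44 on day 3 and 0.79, 0.13 and -0.26 in control and rose 3.98-fold (1.99 ± 0.24 (SE), adjusted p = 6.99e-04). CTSH, cathepsin H, rose by 1.46, adjusted p = 7.24e-04, and GUSB, beta-glucuronidase, by 1.37, adjusted p = 0.00426. Of 27 lysosomal genes 7 rose (median 0.53), and 3 without day 3 replicate 3. Genes of actin remodelling in migrating cells gave 7 rises among 22, and 4 without day 3 replicate 3, with 12 when the slide was a block. LCP1, the plastin of leukocytes, whose probe the array describes as similar to plastin 3, read 0.22, 0.46 and 0.50 on day 3 and -1.48, -1.63 and -2.03 in control and rose 4.3-fold (2.10 ± 0.21 (SE), adjusted p = 1.50e-04). CAPG, which caps actin filaments in macrophages, rose by 1.5, adjusted p = 3.65e-04, and LGALS3, galectin 3, by 1.62, adjusted p = 0.00589.

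In energy metabolism, LDHA, the lactate dehydrogenase of glycolysis, read 3.04, 3.29 and 3.63 on day 3 and 1.57, 1.58 and 2.08 in control and rose 2.99-fold (1.58 ± 0.21 (SE), adjusted p = 0.00108). PDK4, the kinase that shuts off pyruvate dehydrogenase and a target of glucocorticoids, read -1.03, -0.91 and -1.56 on day 3 and -3.94, -4.70 and -2.95 in control, where 1 array was well above background, and rose 6.47-fold (2.69 ± 0.48 (SE), adjusted p = 0.00706). HSD11B1, which regenerates active glucocorticoid inside cells, read 1.53, 0.96 and 1.08 on day 3 and -1.11, 0.01 and -0.40 in control and rose 3.22-fold (1.69 ± 0.28 (SE), adjusted p = 0.00426). In the glycolysis and hypoxia list 3 of 22 rose, and among 30 genes of fatty acid oxidation and the TCA cycle 2 rose, with medians of 0.21 and 0.02. In the second group the share was near the 5.5% called higher over all genes. IDH1, the cytosolic isocitrate dehydrogenase, was among the second group (0.91, adjusted p = 0.00959), and that group had 1 rise with the slide as a block.

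PDIA4 and PDIA5, which fold disulfide-bonded proteins in the endoplasmic reticulum, rose by 1.1, adjusted p = 0.004 and by 0.92, adjusted p = 0.00793. They were among 7 rises in 26 genes of the unfolded protein response and secretory pathway (median 0.50), and the rises numbered 4 without control replicate 2, 3 without control replicate 1 and 2 without day 3 replicate 3. GADD45A, a stress protein of the p53 pathway, read 2.88, 2.75 and 3.04 on day 3 and 1.19, 1.65 and 1.85 in control, a change of 1.32, adjusted p = 0.00101. MTHFD2, a mitochondrial folate enzyme, was called lower on its brightest probe (-1.03, adjusted p = 0.0123), while its probes changed in both directions. Among 14 immediate early and heat shock genes 1 was called, a share near the 7.76% called over all genes.

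Some of the largest changes belonged to genes outside these groups. CCK, the peptide hormone cholecystokinin, read 0.88, 1.27 and 2.88 on day 3 and -3.55, -3.38 and -2.70 in control, where 2 of 3 arrays were well above background, and rose 29.5-fold (4.88 ± 0.45 (SE), adjusted p = 1.23e-04). CRYBA4, a lens crystallin whose probe comes from a rabbit lens cDNA clone, read 1.95, 2.79 and 2.43 on day 3 and -1.49, -2.86 and -2.31 in control and rose 24.4-fold (4.61 ± 0.47 (SE), adjusted p = 2.22e-04). LOC100344919, described on the array as similar to vascular non-inflammatory molecule 3, read -0.86, 1.07 and 2.98 on day 3 and -3.31, -4.70 and -3.58 in control and rose 30.4-fold (4.93 ± 0.75 (SE), adjusted p = 0.00269). Its 3 day 3 arrays differed widely among themselves and all stood above the control arrays. RLN1, relaxin 1, read 0.43, 0.04 and 1.6 on day 3 and -2.27, -2.55 and 0.68 in control, and its change of 2.07 was not called (adjusted p = 0.236). With the slide as a block it was (adjusted p = 0.0221).

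The day 3 arrays were then set against the later days, which asks whether a change seen on day 3 still had the same size. Only 3 of 24624 probes differed between day 5 and day 3 (0.0122%), all lower on day 5, and 44 differed between day 7 and day 3 (0.179%), 14 higher and 30 lower on day 7. These comparisons share the day 3 arrays with the comparison against control. CCK read -3.55, -3.38 and -2.70 in control, 0.88, 1.27 and 2.88 on day 3, -2.94, -3.32 and -3.01 on day 5 and -3.07, -4.04 and -3.10 on day 7. It was lower than on day 3 by 4.76 on day 5 (adjusted p = 0.00731) and by 5.08 on day 7 (adjusted p = 0.00186), and both differences kept their call when any 1 array was left out and with the slide as a block. The day 3 arrays stood apart from all 9 others for this gene. A CXCL8 probe differed from day 3 by -1.94 on day 5 (adjusted p = 0.00774), a call lost without day 3 replicate 2 (adjusted p = 0.0548), and 3 of its probes differed on day 7, by -2.96 (adjusted p = 0.0456), -2.42 (adjusted p = 0.00151) and -2.41 (adjusted p = 0.0143). The second of these kept its call without any 1 array and with the slide as a block, and the other 2 lost it both ways.

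The other named genes that were lower on day 7 than on day 3 included TIMP1 (-2.0, adjusted p = 0.0385), MMP9 (-2.17, adjusted p = 0.04) and the dividing-cell genes RRM2, CDC20, BUB1B, UBE2C and SPAG5. LRRC17, KCNJ13, BMP7, EGFLAM and ITGBL1 were higher on day 7, by 1.85, 1.67, 1.47, 1.12 and 1.04. The array describes the LRRC17 probe as slit homolog 1-like. KCNJ13, an inward rectifier potassium channel, read 0.34, -1.41 and 0.49 in control, -2.69, -2.21 and -1.68 on day 3, -0.75, -0.70 and -0.54 on day 5 and -0.71, -0.67 and -0.17 on day 7 on its brightest probe. That probe was not called between the days. The change of 1.67 is that of another KCNJ13 probe, which read -2.72, -2.39 and -2.01 on day 3 and -0.88, -0.93 and -0.30 on day 7. BMP7, a bone morphogenetic protein read by 4 called probes, had not been called between day 3 and control (-0.39, adjusted p = 0.378). Apart from CCK and CXCL8, each gene of this paragraph lost its day 7 call, on its probe with the largest difference, on leaving out some single array of day 3 or day 7 (highest adjusted p 0.2 to 0.211), and with the slide as a block (lowest adjusted p 0.0699). For most day 3 changes no difference from day 5 or day 7 passed the test, which does not show that they were equal.

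**Figure D5:**
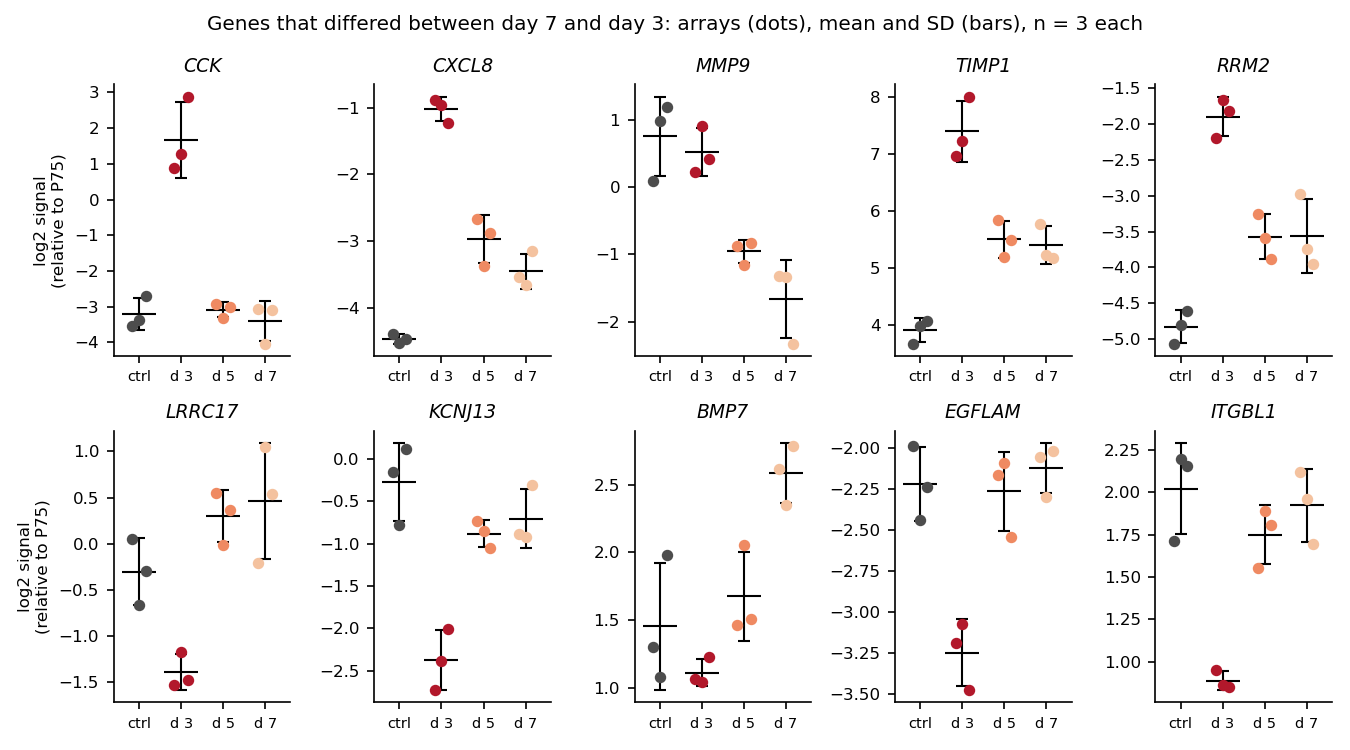
Log2 signal relative to the 75th percentile (vertical axis) on each array (dots) of control, day 3, day 5 and day 7 for 10 genes called between day 7 and day 3, shown on the called probe with the lowest adjusted p, with group mean and SD as bars (n = 3 each). CCK is high on the 3 day 3 arrays and near its control level on the others, and LRRC17, KCNJ13, EGFLAM and ITGBL1 are lowest on day 3.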

How the data were processed

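For each array the authors deposited the scanner output; the submitters' processing notes name Agilent Feature Extraction, version 9.5.1.1. Per the file headers the column used is the background-subtracted, single-colour processed signal, an intensity on a linear scale. Other deposited columns give flags for spots well above background, saturated or outlying. The authors' value table holds intensities of the same arrays on a linear scale; its columns share 1 set of quantiles (median 27.0 each) and correlate at 0.994 or more with the scanner values in log2, without centring of genes. It served as an alternative.

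Each array's log2 signal was reduced by the log2 of its 75th percentile over non-control spots, outlier spots were left out, and repeated spots of a probe were averaged. Groups came from the source names. limma 3.58.1 (R 4.3.3; tables read with data.table, version 1.17.8) was fitted to all 12 arrays, with group means and no block, and p-values were adjusted over all 24624 tested probes. The fit was tested on simulated data. Probes were named through RefSeq accessions of the mOryCun1.1 annotation or, for 136 probes of 67 genes, the array's description: 22545 probes had 1 gene, 28 several and 21050 none. No genome of the array's build was used here, so no coordinates are given.

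The genes named in the text are the 15 largest called rises and falls, up to 4 called members of each list by p (or the 2 with the smallest p), members called against a list's majority, a fixed list, and the extremes between days. MS4A1, the other genes called between days and the markers below background were named after their values were seen. So were the further probes of ABCA6, C6, CLEC4E, CXCL8, HTR2A, ITGA6 and LOC100346285. Members, lists and tests were chosen with earlier results of these data known. Replicate numbers equal slides; same-numbered arrays deviated together only weakly (correlation -0.175 to 0.399; day 3 with control 0.0471, 0.0457 and 0.148), so the slide block is an alternative. The precision of single-colour arrays is limited here by 3 arrays per group. Other alternatives were background correction, normalization, filters, array weights, the arrays fitted and leaving out each array. Values of 1 list and of some single genes are not reported here.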

Additional observations from a re-analysis of the deposited data

Results flagged for a closer look

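For 19 named genes the difference between a later day and day 3 passed its own test in limma. On day 7 only CCK and 1 CXCL8 probe kept the call with any 1 array left out and with the slide as a block. The other genes lost it both ways, so whether their change differed between the days stayed uncertain. MMP9 and BMP7 had not been called between day 3 and control. On day 5, CXCL8 was -1.94 and CCK -4.76 from its day 3 level on the log2 scale (adjusted p = 0.00774 and 0.00731). On day 7, CCK was -5.08 from day 3 (adjusted p = 0.00186), and 3 CXCL8 probes were -2.96, -2.42 and -2.41 (adjusted p = 0.0456, 0.00151 and 0.0143). The other genes lower on day 7 were MMP9 (-2.17), TIMP1 (-2.0), RRM2 (-1.66), CDC20 (-1.64), BUB1B (-1.61), MEDAG (-1.6), UBE2C (-1.56), ESM1 (-1.54), SPAG5 (-1.46), CD1D (-1.12), PNP (-1.1) and RAB13 (-1.02). LRRC17 was 1.85, KCNJ13 1.67, BMP7 1.47, EGFLAM 1.12 and ITGBL1 1.04 above day 3 on day 7. Where a gene had several called probes, the value is that of the probe with the largest difference, and the adjusted p-values of these 17 genes over their called probes were 0.0385 to 0.046.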

How the results depend on the processing

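Against the 1808 probes called between day 3 and control, normexp with quantile normalization, quantile or median scaling, the authors' values, array weights and the other background filters called between 1274 and 2704. Testing all 43623 probes called 974, and fitting only the 6 arrays of the 2 groups called 1063. Leaving out 1 array of the 2 groups gave 797 to 1966. With the replicate block (the slide) the count was 2405; 160 of 164 called named genes kept the call under it, and ACO1, FSIP2, LRRC17 and MTHFD1L lost it, while CD3G, MYH11 and RLN1 gained one. Of these 164 genes, 88 kept their call under every alternative that could be run for them, and 16 to 60 lost it when 1 array was left out. The number of alternatives differed between genes. The filter that asked for signal well above background on all arrays of both groups could be applied to only 111 of the 164. Genes dim on some array of either group were therefore not put to that filter. Of the called genes only MTHFD2 turned direction: with the mean of its probes, which differ in sign, its change was 0.19 (adjusted p = 0.687) instead of -1.03. Genes near 0 that were never called turned sign too. VCAM1 was -0.0884, -0.0889 and -0.0802 with normexp, quantile scaling and the authors' values, and RGS5 -0.0878, -0.124 and -0.108. HDC was -0.00494 with normexp, and with array weights TNC was -0.184 and MMP9 0.161. Without 1 array, HDC ranged over -0.0681 to 0.117, ITGA2B over -0.0548 to 0.524, TUBB1 over -0.364 to 0.0122, TNC over -0.182 to 0.289, VCAM1 over -0.0733 to 0.221 and RGS5 over -0.287 to 0.505.

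Counts between days were small and moved more. For day 5 against day 3 (3 probes), normexp with quantile normalization gave 28, array weights 230 and leaving out 1 array 2 to 4. Fitting only these 6 arrays gave 0 (limma; 1781 probes at an unadjusted p under 0.05). For day 7 against day 3 (44 probes) the counts were 68 with normexp, 3 without a filter, 23 on 6 arrays, 2 with the replicate block, 228 with array weights and 2 to 55 without 1 array. The cause of these shifts was not tested, apart from the fewer arrays or more probes that some settings imply. Dim probes carry only a bound on 1 side, and 45 called genes had no control array and 7 no day 3 array well above background.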
